A study of Mus musculus with 2 samples.

Results

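The genes of the matrix metalloproteinases (Mmp), of the ADAMTS proteases (Adamts), of the ADAMTS-like proteins (Adamtsl) and of the tissue inhibitors of metalloproteinases (Timp) were examined for binding by lysine-specific demethylase 1 (LSD1) in mouse brown adipocytes. They were chosen by symbol alone, as autosomal protein-coding genes of the GENCODE M21 annotation whose symbol is one of these stems followed by digits, so membership does not depend on a measured value. The rule found 48 genes of 20807 autosomal protein-coding genes: 21 Mmp, 19 Adamts, 5 Adamtsl and 3 Timp. The study holds 2 libraries from primary brown adipocytes of the C57BL/6 N strain, labelled as control genotype and passaged 2 to 3 times. One is chromatin precipitated with a homemade LSD1 antibody, and the other is input DNA without antibody. Both came from cells grown in 20% fetal bovine serum and then differentiated for 10 days, where the adipogenic mixture held isobutylmethylxanthine (500 µM), T3 (1 nM), rosiglitazone (1 µM), indomethacin (125 nM), insulin (850 nM) and dexamethasone (1 µM). Fixation lasted 5 min.

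The data are 1 list of 59175 LSD1 peaks on the mm10 assembly, with a score per peak that is the authors' own value. The lowest score was 50.1 and the median 111. There was 1 LSD1 library, so no value below has a replicate check and no test of any difference was made. The list holds no read counts and the depth is unknown. A gene without a peak is therefore a gene where none was listed, not one shown to lack LSD1. The input library has no values of its own in the list. A culture of this kind can hold cells other than adipocytes, and a peak does not tell in which cells, or in what share of them, LSD1 was bound. Binding data give no expression, so the cell type label could not be checked against marker levels. Of 6 adipocyte marker genes 5 had a promoter peak (401 at Pparg, 76.0 to 110.0 at the other 4, none at Ucp1), beside 58.3% of all genes. The counts were 3 of 4 for preadipocyte (175 to 323), 1 of 4 for macrophage, 1 of 3 for endothelial and 0 of 3 for muscle marker genes.

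Matrix metalloproteinases are zinc-dependent enzymes that cut collagens, gelatin and other matrix proteins, and ADAMTS proteases cut proteoglycans and procollagens. ADAMTS-like proteins share the ancillary domains of ADAMTS proteases without a protease domain, and TIMPs block the active site of many of these enzymes. In fat, remodelling of the pericellular matrix by such enzymes accompanies the growth and differentiation of adipocytes. LSD1 is a histone demethylase that acts largely within corepressor complexes. Many Mmp genes, above all those of the collagenases and stromelysins, are known for short inducible promoters with a TATA box and a site for the AP-1 transcription factor.

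The 150 bases before a transcript start are shown for the gene with the highest promoter score in each family, and for Mmp3 and Mmp13, which had no promoter peak and carry the AP-1 and TATA arrangement. They were read from GRCm38.p6, the assembly of mm10, and run 5′ to 3′ on the gene's strand, which is plus in each case. Capitals mark matches on either strand to AP-1 (TGANTCA), the GC box bound by Sp1 (GGGCGG), the PEA3 site of ETS factors (AGGAAG) and the TATA box (TATAAA). A match is a description of the letters, not evidence of a bound factor.
Mmp15, chr8:95352118-95352267: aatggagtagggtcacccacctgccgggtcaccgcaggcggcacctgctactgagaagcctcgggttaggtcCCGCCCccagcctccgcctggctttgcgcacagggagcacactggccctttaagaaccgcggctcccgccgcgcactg
Adamts8, chr9:30942412-30942561: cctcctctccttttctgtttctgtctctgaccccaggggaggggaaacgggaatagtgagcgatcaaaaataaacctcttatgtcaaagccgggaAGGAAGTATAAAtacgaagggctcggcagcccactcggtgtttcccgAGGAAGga
Adamtsl3, chr7:82335582-82335731: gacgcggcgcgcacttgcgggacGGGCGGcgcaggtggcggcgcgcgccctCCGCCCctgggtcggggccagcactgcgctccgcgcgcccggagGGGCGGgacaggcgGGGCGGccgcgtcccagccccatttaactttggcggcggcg
Timp3, chr10:86302704-86302853: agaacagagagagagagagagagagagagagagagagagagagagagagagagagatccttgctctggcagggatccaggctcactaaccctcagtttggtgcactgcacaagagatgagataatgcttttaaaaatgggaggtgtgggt
Mmp3, chr9:7445672-7445821: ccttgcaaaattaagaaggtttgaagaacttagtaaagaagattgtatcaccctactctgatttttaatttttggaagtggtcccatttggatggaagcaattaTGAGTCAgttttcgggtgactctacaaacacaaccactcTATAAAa
Mmp13, chr9:7272364-7272513: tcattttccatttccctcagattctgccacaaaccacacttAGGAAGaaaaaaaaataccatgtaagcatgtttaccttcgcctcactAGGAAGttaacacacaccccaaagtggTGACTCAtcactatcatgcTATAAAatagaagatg

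The 6 stretches differ in CpG dinucleotides. Of the occupied genes, Adamtsl3 has 27, Mmp15 12, Adamts8 7 and Timp3 0, and Mmp3 and Mmp13 have 1 each. The Adamtsl3 stretch has 4 GC boxes, beginning 127, 99, 55 and 41 bases before the start, and the Mmp15 stretch has 1, beginning 78 bases before it. Mmp3 has an AP-1 match at -46 and a TATA match at -7, counted from the annotated start to the first base of the match, and Mmp13 has them at -35 and -16. Adamts8 has the highest promoter score of its family although its stretch holds a TATA match (-49) and 2 PEA3 matches (-55 and -8) and no GC box. The Timp3 stretch lies before an alternative start 2482 bp inside the gene, where its promoter peak sits. It has no match to the 4 motifs and a run of alternating g and a.

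A gene is called occupied here if 1 bp or more of a peak fell inside its promoter region, which reaches 1 kb to either side of each protein-coding transcript start. LSD1 occupied 30 of the 48 promoters (62.5%), beside 58.3% of all autosomal protein-coding genes, a share near that background. The median of the highest promoter score was 325 over the 30 occupied genes (quartiles 169 and 532) and 318 over all 12122 occupied genes (quartiles 159 and 573). Scores of the 30 genes ranged from 75.8 at Adamtsl2 to 1349 at Mmp15, and 15 of the 30 lay above the median of all occupied genes. By family, 12 of 21 Mmp, 11 of 19 Adamts, 5 of 5 Adamtsl and 2 of 3 Timp genes were occupied. The median score of the occupied genes was 243 for Mmp and 508 for Adamts, and the ranges overlapped (89.5 to 1349 and 97.6 to 882).

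**Figure D1:**
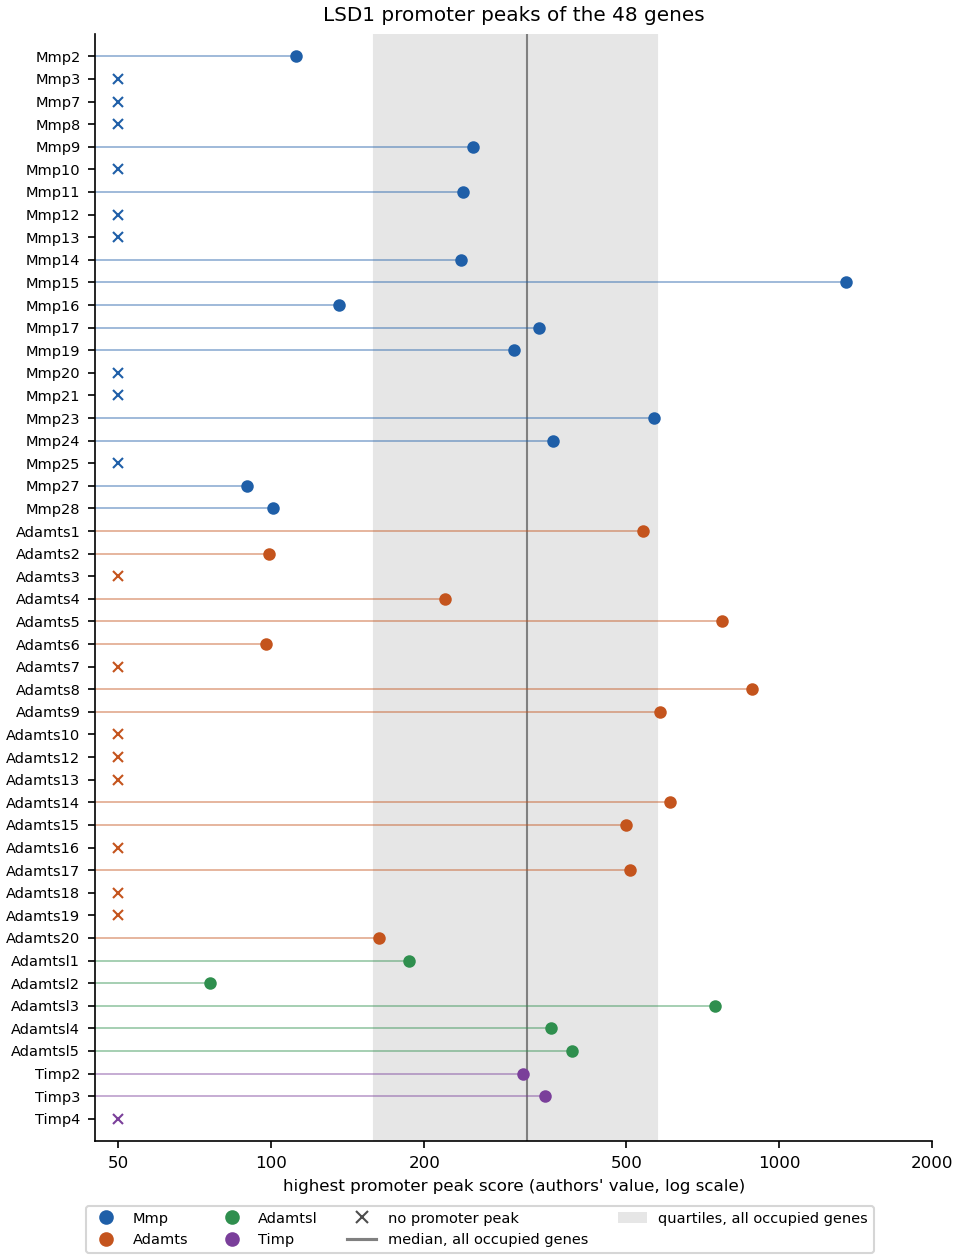
Highest LSD1 promoter peak score of each of the 48 genes (x axis, authors' value on a log scale), coloured by family. Crosses, drawn at 50 for position only, are the 18 genes without a promoter peak. The line and grey band are the median (318) and quartiles (159 and 573) of all occupied autosomal genes. Mmp15 lies farthest to the right, and the occupied genes spread on both sides of the median.

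The promoter of Mmp15, which encodes a transmembrane matrix metalloproteinase, carried the highest promoter score of the 48 genes. Its peak at chr8:95351253-95353730 was 2478 bp wide, covered the start and scored 1349, the 96.1th percentile of all occupied promoters. One further Mmp15 peak, in an intron at chr8:95364012-95364596, scored 79.2. Of the 6 membrane-type genes 5 were occupied (83.3%), and all 6 fall in the middle and high classes of promoter CpG content, where 71.7% and 91.2% of all genes were occupied. These enzymes sit at the cell surface and act on the matrix next to the cell. Mmp24 scored 358, Mmp17 337, Mmp14 236 and Mmp16 136. Mmp25, which like Mmp17 encodes a lipid-anchored enzyme, had no promoter peak, and its 1 peak (score 182) lay over an exon 14829 bp downstream of the start.

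Mmp14, the membrane-type enzyme that activates the gelatinase MMP2 at the cell surface, had no peak at its annotated gene start. The nearest was 1290 bp away, and its promoter peak (score 236, chr14:54433294-54434655) was counted through an alternative start and had its midpoint 1538 bp downstream of that. Its window from 10 kb upstream to the gene end held 9 peaks, of which 4 were intronic, and the highest (score 312, chr14:54442418-54443159) lay in an intron 10352 bp from the nearest start. Both gelatinase genes were occupied at modest scores. Mmp2 had a peak over its start that scored 112, and a higher one in an intron (score 256, chr8:92849936-92850927). The promoter peak of Mmp9 (score 249) only reached into the promoter region from upstream, with its midpoint at -1532 bp from the start and its edge 950 bp from it.

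Mmp23, whose product is an unusual membrane-tethered enzyme, had a peak of score 566 over its start and Mmp19 one of score 300.4. Mmp28, the gene of epilysin (described after its values were seen, as are Mmp14, Timp2 and Timp3), and Mmp27 scored 101 and 89.5. Mmp11, encoding stromelysin-3, scored 238. Both of its promoter peaks also overlapped promoter regions of Chchd10, a neighbour on the opposite strand, so the peaks cannot be assigned to one gene. The 9 Mmp genes with no promoter peak were Mmp3, Mmp7, Mmp8, Mmp10, Mmp12, Mmp13, Mmp20, Mmp21 and Mmp25.

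Of these 9 genes 7 lie together on chromosome 9. The Mmp cluster there (chr9:7272514-7699585, 427 kb) holds 8 of the 48 genes. Among them are the collagenase genes Mmp8 and Mmp13, the stromelysin genes Mmp3 and Mmp10, Mmp7 of matrilysin, Mmp12 of macrophage elastase and Mmp20 of the enamel protease. Mmp1b (chr9:7368239-7388047), which the symbol rule leaves out, also lies in this span. Of the 8 genes 1 was occupied (Mmp27, at 89.5, below the median of the whole peak list), a share close to the 11.9% of all genes in the lowest of 3 classes of promoter CpG content, where all 8 fall. The cluster held 6 peaks with scores from 79.4 to 119, or 1.40 per 100 kb, beside 2.71 on chromosome 9 and 2.39 over the autosomes. Of the 6, 5 lay outside promoter regions of the 8 genes, and 2 of the 8 had any peak in their window, Mmp27 with 3 and Mmp8 with 1. Their observed over expected CpG ratios ran from 0.06 to 0.21. Of the 13 Mmp genes elsewhere, which differ from the cluster in CpG content, 11 were occupied. Apart from Mmp9, Mmp19 and Mmp21, these 13 fall in the middle and high classes, where 71.7% and 91.2% of all genes were occupied.

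All 7 proteoglycan-cleaving ADAMTS genes were occupied, beside 58.3% of all genes, with a median score of 540.0. Of the 7, 5 fall in the middle and high classes of promoter CpG content, where 71.7% and 91.2% of all genes were occupied. The enzymes of this group cut aggrecan, versican and related proteoglycans. The genes were grouped from textbook knowledge with earlier results of these data known, and the group is small, so its full count is a description. Adamts8 had the highest score, 882 at chr9:30942233-30943740, followed by Adamts5 with 769 at chr16:85900488-85902218, the major aggrecanase gene. Adamts9 scored 581, Adamts1 540.0, Adamts15 498, Adamts4 220.2 and Adamts20 163. The first 3 of these 7 lay at or above the 75th percentile of occupied promoters (89.5, 85.6 and 75.5).

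The peaks of these genes differed in layout. Adamts5 had 2 more high-scoring peaks, 1 over a coding exon 2568 bp downstream of the start (score 685, chr16:85898199-85900322) and 1 in an intron (score 452, chr16:85886637-85888275), and a weak upstream peak of 59.5. Adamts8 had its single promoter peak, 2 intronic peaks (119 and 117) and an upstream peak (100.1). Adamts9 had 2 promoter peaks, of which the one over a start scored 462 (chr6:92943253-92944138) and the higher one lay 1677 bp downstream of the nearest start (chr6:92941100-92942530). Adamts20 was counted through a protein-coding start inside the annotated gene, and the nearest peak to the annotated gene start was 20121 bp away.

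Of the neighbouring pairs, 2 belong to this group. Adamts1 and Adamts5 lie 53.1 kb apart on chromosome 16 on the same strand, with 1 peak (score 204) between them. Adamts8 and Adamts15 point away from each other on chromosome 9 with starts 20.1 kb apart, and 1 peak (100.1) lies between them. In both pairs each gene had a promoter peak of its own, with scores of 540.0 and 769 and of 882 and 498.

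The procollagen N-propeptidase genes, whose enzymes trim fibrillar procollagens, differed from one another. Adamts14 had a promoter peak of score 609 at chr10:61273512-61275358 and a lesser one of 79.8. Adamts2 had a promoter peak of score 99.1 with its midpoint at -896 bp from its start (chr11:50600892-50601484), and Adamts3 had none. Adamts2 carried the most peaks of all 48 genes, 26 in its window, 25 of them intronic with scores from 75.5 to 395. Adamts3, a gene of like length (206 against 205 kb), held 2 peaks, both intronic, with scores of 100.03 and 85.5. Across the 2372 autosomal genes of at least 100 kb the median was 2.42 peaks per 100 kb of window. Adamts2 had 12.1 (98.4th percentile of these genes) and Adamts3 had 0.925 (22.1th percentile).

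Most other ADAMTS genes had no promoter peak. Adamts7 and Adamts12, whose enzymes cut cartilage oligomeric matrix protein, had none, but 2 and 13 peaks in their windows. Adamts13, the gene of the protease that cuts von Willebrand factor, had none, and the 1 peak in its window (score 267) lay at -8946 bp from the nearest start, over the promoter of Rexo4. Of Adamts6, Adamts10, Adamts16, Adamts17, Adamts18 and Adamts19, only Adamts17 and Adamts6 were occupied, with scores of 508 and 97.6. Adamts16 had 8 peaks in its window and Adamts19 had 1, in an intron (score 385). Adamts10 and Adamts18 had no peak in theirs, and at Adamts18 the nearest peak lay 144116 bp from the start.

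Some close relatives within the family differed in the call and others did not. Adamts17 was occupied and its relative Adamts19 was not. Adamts6 was occupied at a low score and its relative Adamts10 was not. Adamts9 and Adamts20, the 2 genes whose enzymes have a GON domain, were both occupied, with scores of 581 and 163, Adamts8 and Adamts15 were both occupied, and Adamts7 and Adamts12 were both without a promoter peak. Whether these differences exceed the variation between cultures was not tested.

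All 5 Adamtsl genes were occupied, beside 58.3% of all genes. Several of their products bind the fibrillin-rich matrix, and none carries a protease domain. Adamtsl1, Adamtsl4 and Adamtsl5 fall in the middle class of promoter CpG content, Adamtsl3 in the high and Adamtsl2 in the low class. In these classes 71.7%, 91.2% and 11.9% of all genes were occupied. With the annotated start only, or with peaks at or above the list median, 4 of the 5 were occupied. Adamtsl3 scored 748 at chr7:82335087-82336695, the 84.6th percentile of occupied promoters, and had 10 intronic peaks (75.5 to 235). Adamtsl5 scored 391 and Adamtsl4 355. Adamtsl1 scored 187 and Adamtsl2 75.8, the lowest of the 30. The promoter peak of Adamtsl1 (chr4:86053343-86054071) lay at an internal start, and the annotated start of this 914 kb gene was 147534 bp from any peak. Its window held 21 peaks, the second highest number, of which 20 were intronic. At 2.27 peaks per 100 kb it was near the median of long genes.

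Timp2 and Timp3 were occupied and Timp4 was not. TIMP2 is the inhibitor that also bridges pro-MMP2 to MMP14 at the cell surface, and TIMP3 is the member that is held in the matrix and also inhibits ADAMTS proteases. The promoter scores were 313 for Timp2 and 346 for Timp3, both close to the median of all occupied genes. Timp2 had 12 peaks in its window and Timp3 had 14, or 18.6 and 23.7 per 100 kb, beside a median of 4.03 over all genes. In both genes the highest peak was not the promoter peak. Timp4, which lies wholly inside Syn2 on the opposite strand, had no peak in its window, and the nearest was 17845 bp from its start.

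The intronic peak of Timp3 at chr10:86338825-86340505 scored 1668, the highest value in any of the 48 windows. It was 1681 bp wide and centred 36811 bp downstream of the nearest Timp3 start. Of the 44590 autosomal peaks that overlap no protein-coding promoter region, 23 scored as high or higher, this one included. Timp3 lies wholly inside Syn3, a synapsin gene on the opposite strand, so the peak lies within both genes and cannot be assigned to one. Its sequence was poor in CpG (ratio 0.09, GC content 49.3%) and held 1 AP-1 match, 15 bp from the midpoint. The 150 bases around the midpoint are shown because this peak tops the gene set, on the plus strand of GRCm38.p6 with the AP-1 match in capitals.
Timp3 intron, chr10:86339590-86339739: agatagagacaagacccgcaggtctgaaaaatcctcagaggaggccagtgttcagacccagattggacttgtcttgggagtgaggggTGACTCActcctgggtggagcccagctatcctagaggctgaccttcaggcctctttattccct

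The 48 windows held 222 peaks, of which 178 (80.2%) overlapped no protein-coding promoter region, beside 75.7% of all autosomal peaks. Among the 18 of them in the highest score decile of the list, 12 were promoter peaks of the gene itself and 5 overlapped no promoter region (27.8%, beside 23.7% of all autosomal peaks of that decile). Both autosomal shares also count peaks outside every gene window, so they are not like-for-like backgrounds. The windows of all autosomal protein-coding genes held 41239 of the 58888 autosomal peaks. Of the 48 genes 38 (79.2%) had at least 1 peak, beside 72.8% of all autosomal protein-coding genes. Of the 222 peaks, 37 were promoter peaks of the gene itself, 146 were intronic, 5 lay over coding exons, 11 over other exons and 23 lay upstream. The median score was 249 for the promoter peaks and 96.5 for the intronic ones, of which 62 of 146 reached the list median. The 10 genes without a peak from 10 kb upstream onward were Mmp3, Mmp7, Mmp10, Mmp12, Mmp13, Mmp20, Mmp21, Adamts10, Adamts18 and Timp4. Per 100 kb of window, the median was 4.97 peaks over the 48 genes and 4.03 over all genes.

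**Figure D2:**
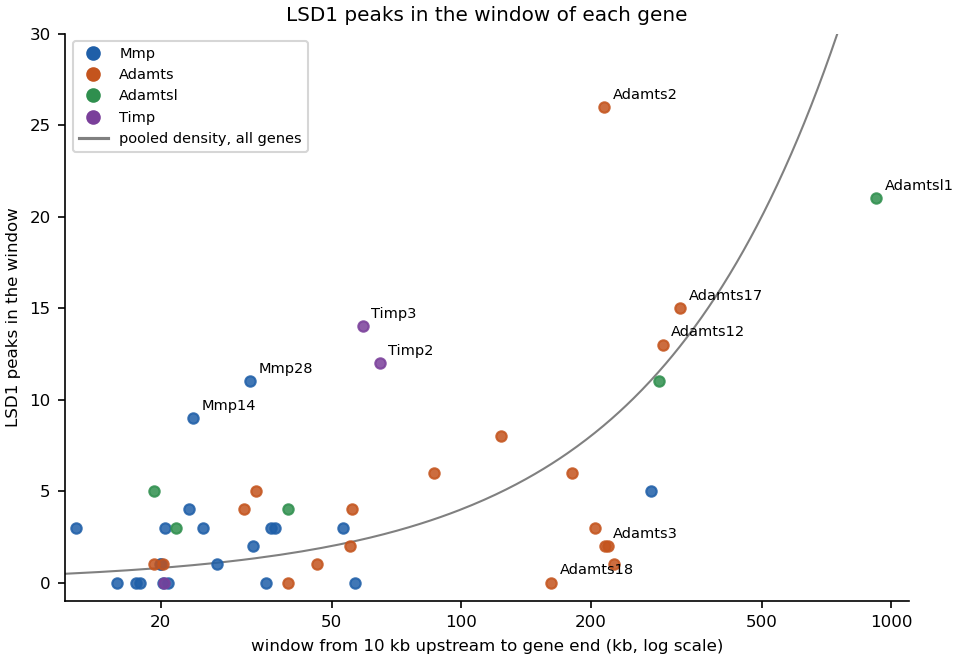
Number of LSD1 peaks (y axis) against the length of the window from 10 kb upstream to the gene end (x axis, kb, log scale), 1 point per gene, coloured by family. The curve is the pooled density of all autosomal protein-coding genes. Timp3, Timp2, Mmp28, Mmp14 and Adamts2 lie above the curve, and Adamts3 and Adamts18 lie below it.

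In 8 occupied genes the highest peak of the window was not a promoter peak of the gene. These were Mmp2, Mmp14, Mmp28, Adamts2, Adamtsl1, Adamtsl2, Timp2 and Timp3. At Mmp28, with 11 peaks in 32.3 kb, the highest (score 567, chr11:83440250-83441873) lay over an exon at the 3′ end and over the promoter of 1700020L24Rik, which overlaps the gene on the opposite strand. At Timp2 the highest (score 488, chr11:118326656-118328310) was intronic, and 4 upstream peaks scored 119, 314, 377 and 85.03. At Adamts2 the highest (score 395, chr11:50620993-50622508) lay 19666 bp into the gene.

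**Figure D3:**
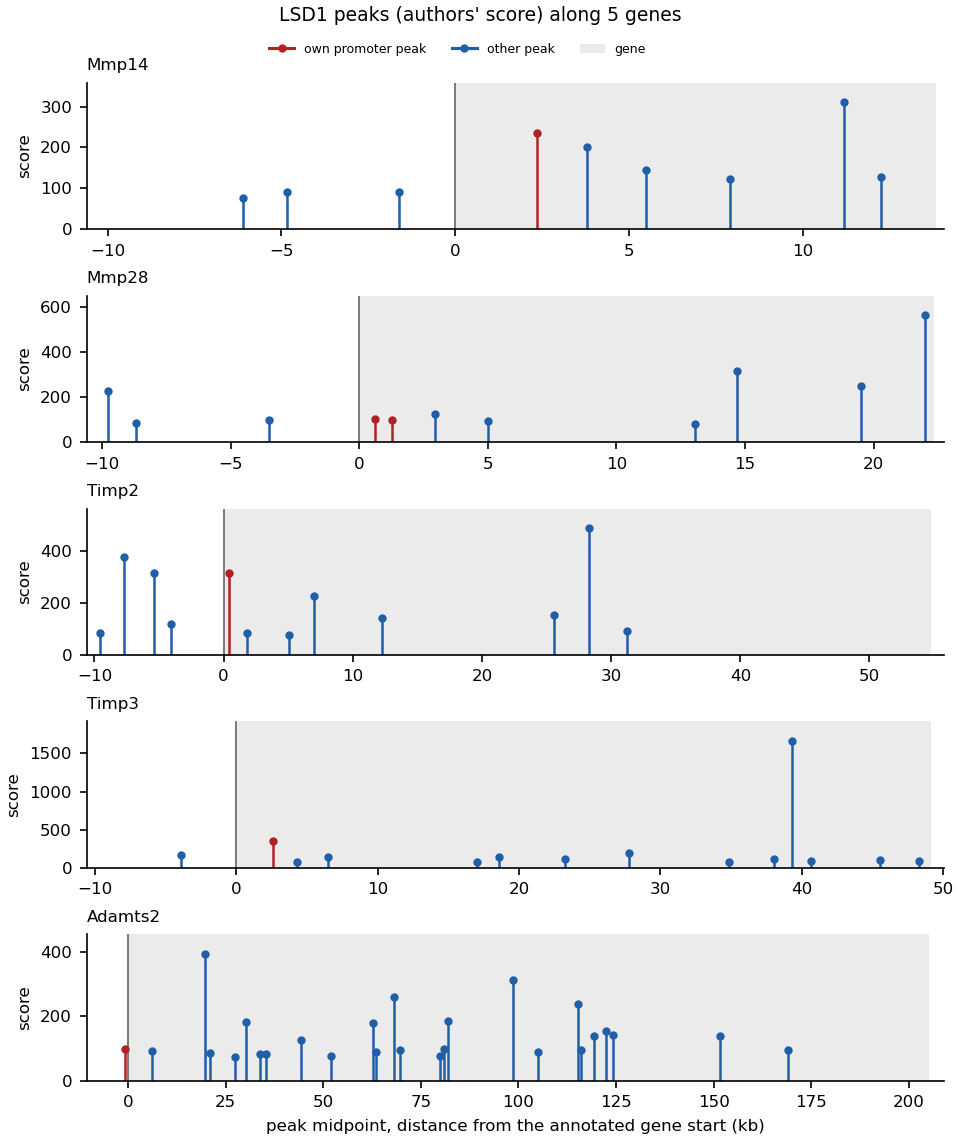
LSD1 peaks along Mmp14, Mmp28, Timp2, Timp3 and Adamts2, chosen after their values were seen. The x axis is the distance of the peak midpoint from the annotated gene start (kb, downstream positive, grey over the gene) and the y axis the authors' score, starting at 0, with promoter peaks of the gene in red. Each panel has its own y scale. In each of the 5 genes a blue peak stands higher than any red one, for example 1668 against 346 in Timp3 and 567 against 101 in Mmp28.

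Where a promoter was occupied, the peak did not always lie on the start. In 22 of the 30 occupied genes (73.3%) a promoter peak covered a protein-coding start, beside 85.8% of all occupied genes. The 8 others were Mmp9, Mmp14, Mmp24, Mmp28, Adamts2, Adamts4, Adamts6 and Adamts14. The midpoint of the highest promoter peak lay downstream of the nearest start in 20 of 30 genes (66.7%, beside 51.3% of all occupied genes). More than 1 promoter peak was found in 7 of the 30 (23.3%, beside 24.5%).

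Occupancy of the 48 genes went with the CpG content of the promoter, given as the observed over expected CpG ratio in the 1000 bp centred on a start, taking the start with the largest ratio. In a gene with several starts, that start need not be the one where the peak lies. All autosomal genes were divided into 3 classes of equal size at ratios of 0.39 and 0.75. In the low class 6 of 18 genes were occupied (33.3%), beside 11.9% of all genes of that class. In the middle class it was 18 of 24 (beside 71.7%) and in the high class 6 of 6 (beside 91.2%). Genes with a single start made up 10 of the 30 occupied and 12 of the 18 other genes, and a gene with more starts has more promoter region in which a peak can fall. The median ratio was 0.65 in occupied genes and 0.22 in the others, and the ranges overlapped (0.11 to 0.88 and 0.06 to 0.73).

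Occupied despite a low ratio were Mmp9, Mmp19, Mmp27, Adamts4, Adamts5 and Adamtsl2. Mmp19 had the lowest ratio of them, 0.11, with a score of 300.4, and Adamts5 the highest score, 769, at a ratio of 0.30. Without a peak despite a middle ratio were Mmp25, Adamts3, Adamts7, Adamts10, Adamts18 and Adamts19, with ratios of 0.51 to 0.73. Within the high class scores ran from 99.1 at Adamts2 to 882 at Adamts8.

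**Figure D4:**
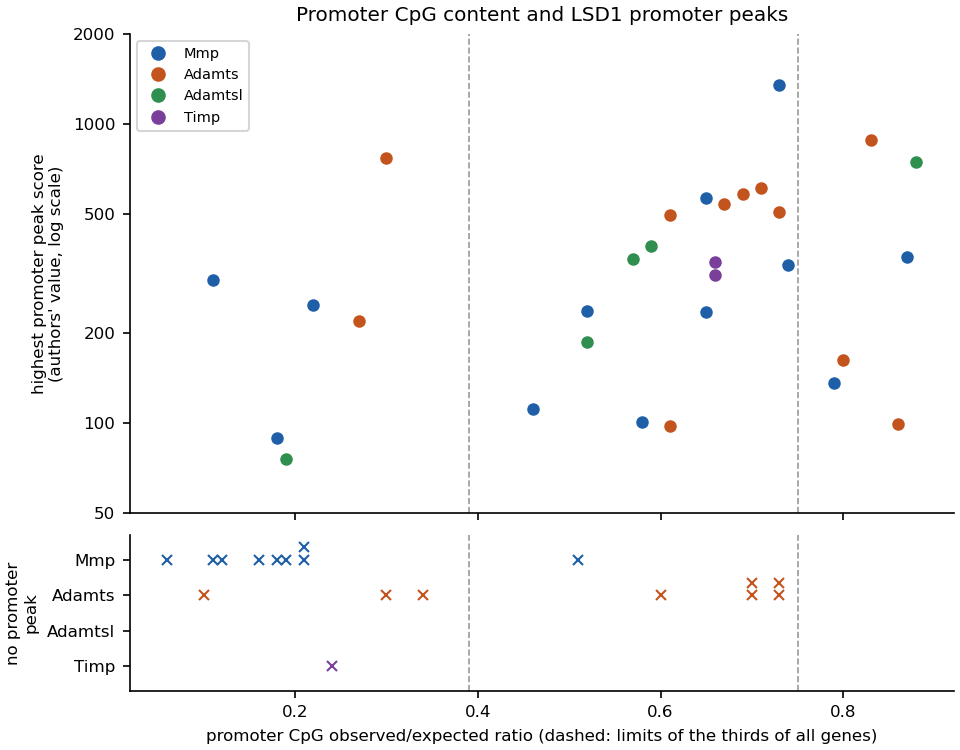
Promoter CpG observed over expected ratio (x axis) and highest promoter score (upper panel, authors' value on a log scale) of the 30 occupied genes, with the 18 genes without a promoter peak as crosses by family in the lower panel (crosses at an equal ratio are stacked). Dashed lines at 0.39 and 0.75 divide all autosomal genes into classes of equal size. Crosses are absent above 0.75, and 12 of the 18 lie below 0.39.

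Promoter motifs were counted on both strands in the 300 bp from 250 bases before to 50 after the annotated gene start. The AP-1 letters TGANTCA were found at 6 of 48 genes (12.5%, beside 6.88% of all genes), namely Mmp3, Mmp7, Mmp10, Mmp13, Mmp19 and Mmp20. Of these Mmp19 was occupied, so the letters were in 1 of 30 occupied and 5 of 18 other promoters, beside 4.99% and 9.51% over all genes. Of the 6 genes 5 belong to the chromosome 9 cluster, where 6 of 8 genes also had TATAAA and 0 had GGGCGG. Over the 48 genes TATAAA was found at 13 (27.1%, beside 12.7% of all genes), in 6 occupied and 7 other promoters (beside 7.6% and 19.9% over all genes). GGGCGG was found at 23 (47.9%, beside 43.7%) and AGGAAG at 22 (45.8%, beside 34.5%). AGGAAG was found in 9 of the 30 occupied and 13 of the 18 other promoters, beside 32.0% of occupied and 38.0% of other promoters over all genes. GGGCGG was found in 16 and 7 of them, beside 60.4% and 20.4%. The motif window lies at the annotated gene start, whereas a gene is called occupied through any protein-coding start. Mmp14, Adamts6, Adamts20, Adamtsl1 and Timp3, all among the 9 with AGGAAG, had no peak in the promoter region of the annotated start. Mmp14 and Timp3 are also among the 16 with GGGCGG, and Adamts20 is among the 6 with TATAAA. Absence of a match says only that these letters are not in the window.

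The AP-1 letters were also counted in the 200 bp around peak midpoints. They were found in 19 of the 178 peaks of the 48 windows that overlapped no protein-coding promoter (10.7%, beside 10.8% of all such autosomal peaks). Over promoters it was 2 of 44 peaks (4.55%, beside 3.76%). Adamts2 had 4 of its 25 non-promoter peaks with a match, and Adamts12 and Timp2 had 2 each, of 13 and 10.

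Genes that activate, restrain or feed the same proteolysis were occupied as well, beside the same background of 58.3%. Of 8 genes of activating proteases and their receptor, 7 had a promoter peak (median score 255). Furin, whose enzyme cleaves the propeptide of membrane-type MMPs and ADAMTS proteases, scored 585, the related convertase genes Pcsk7 and Pcsk5 515 and 455, and Plg, the gene of plasminogen, had none. All 6 genes of inhibitors and clearance receptors were occupied (median 289), led by Lrp1, the receptor that takes up many of these proteases (766), and Reck, a membrane-anchored MMP inhibitor (602).

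Of the 8 genes for membrane-anchored ADAM proteases, the shedding relatives of ADAMTS enzymes, 7 were occupied (median 429.9). All 7 fall in the middle and high classes of promoter CpG content, where 71.7% and 91.2% of all genes were occupied. Adam10 scored 825, Adam12 804 and Adam19 517, and Adam8 had no peak. Among 16 genes of matrix substrates 12 were occupied (median 230.3). The neighbours Col4a1 and Col4a2 have the same highest promoter peak (chr8:11311259-11312134, score 248), so it is counted for both genes. Vcan, which encodes versican, a substrate of the proteoglycan-cleaving group, scored 767, Fbn1 of fibrillin 584 and Fn1 of fibronectin 472. Acan, Bcan and Ncan, which encode the other large proteoglycans of that kind, and Vwf had no promoter peak. The fibrillar collagen genes Col1a1, Col1a2 and Col3a1 scored 193, 123 and 106. The Col3a1 peak (chr1:45340720-45341380) was counted through an internal start and lay well inside the gene (chr1:45311538-45349706). The same holds for the highest promoter peak of Adam12 (chr7:134223495-134224575, in a gene at chr7:133883199-134232146).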

How the data were processed

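LSD1 chromatin immunoprecipitation and input DNA of brown adipocytes were sequenced, 1 library each. Per the labels' protocols, Bowtie2 placed the reads on mm10. The submitters' processing notes list MACS 1.41, and the peak names in the file carry that tool's name. The calling threshold, read filters and use of the input are not given in the sources used here. Each deposited peak has a score, the authors' value on an unstated scale, which served only to describe and rank peaks. A threshold or depth change could move low-scoring peaks in or out of the list. Genes and starts came from GENCODE M21 on GRCm38.p6, and 0 chromosomes had a peak beyond their end. All 48 member, 38 related and 20 marker symbols were matched. Overlaps were counted in Python 3.11.15 with pandas 2.3.3 and pysam 0.24.0, and the counting was tested on simulated data. Sequences came from the GRCm38.p6 genome. With 1 LSD1 library no test was possible. Every one of the 48 genes is named. By the rule for detail, genes at or above the 75th percentile of occupied promoter scores and the 2 with most peaks get positions. Mmp14, Mmp28, Timp2 and Timp3 were added after their values were seen. The gene set and all lists were chosen with earlier results of these data known. Alternatives were other promoter and window sizes, midpoints in place of overlap, single starts, score minimums and a wider symbol rule. Some results on neighbouring and related genes are not reported here.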

Additional observations from a re-analysis of the deposited data

How the results depend on the processing

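Most counts moved by less than 1.5 times under other definitions. The 30 occupied genes became 25 to 30 with promoters of 500 bp or 2.5 kb, midpoints in place of overlap, the annotated gene start only or peaks at or above the list median. Promoters of 500 bp lost Mmp9, Mmp14 and Adamts2, and midpoints lost Mmp9 and Mmp14. The annotated start alone lost Mmp14, Adamts6, Adamts20, Adamtsl1 and Timp3, and left 1 Timp gene occupied; over all genes 54.6% were then occupied, and of the 48 genes 52.1%. Peaks in the highest score decile left 11 genes occupied (22.9%, beside 24.0% of all genes), with 2 Mmp, 7 Adamts, 2 Adamtsl and 0 Timp genes, and left 15 genes with a nearby peak and 18 peaks in the windows. Peaks at or above the list median left 108 peaks in the windows. The median promoter score of occupied genes, 325, was 346 with promoters of 500 bp, 341 with midpoints, 355 with the annotated start or with peaks at or above the list median, and 581 in the highest decile. These last 2 rise by construction, since low scores are removed. Adding a letter after the digits and chromosome X brought in Mmp1b and Timp1, neither with a peak. No paired analysis was possible because there is 1 LSD1 library. The unknown depth limits what the absence of a peak can show.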
